A study of Mus musculus with 6 samples.

Results

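The Notch receptors Notch1 to Notch4, the ligands Jag1, Jag2, Dll1 and Dll4 and the downstream repressor genes Hes1 and Hey1 were followed in cultured white fat cells given miR-182-5p. Members were found by their gene symbols, and all 10 are listed among the 22609 genes counted in every sample. The cells were primary cultures grown from the stromal vascular fraction of inguinal fat of male C57BL6 mice aged 3 weeks and differentiated in the dish. The 3 control samples received a control vector and the 3 miR-182-5p samples received miR182, by electroporation according to the sample labels, whereas the methods of the study describe a lipid-delivered mimic and slightly older mice. No genetic change is stated for either group, and nothing says whether the 3 samples of a group came from separate cultures, so p-values measure only the spread between these samples. The samples are bulk RNA of a culture that can hold several cell types.

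Notch signaling passes between touching cells. A ligand of the Jagged or Delta-like family on one cell pulls on a receptor on its neighbor, the receptor is cut first by an ADAM protease and then within the membrane by gamma-secretase, and the freed intracellular domain joins RBPJ in the nucleus to switch on genes such as Hes1 and Hey1. In fat, Notch activity is known as a restraint on beige adipocyte features, and the pathway is also central to blood vessel sprouting.

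Each sample had 25869810 to 28796712 reads on genes, and 13117 genes passed the filter on low counts. Values per sample are given as CPM, reads per 1000000 reads on genes after scaling of the libraries. The median log2 fold change (miR-182-5p over control) over these genes was -0.0043 and the common coefficient of variation between replicates was 3.97%. At this spread 6124 genes (46.7%) had a Benjamini-Hochberg adjusted p under 0.05 in the quasi-likelihood test of edgeR. Genes that also differed by at least 1.5-fold are named called here, and these were 977 (7.45%), 258 higher and 719 lower. The Mir182 gene itself had 0 reads in all 6 samples. Mature miRNAs carry no poly(A) tail and are not captured by such libraries, so the counts do not check the delivery of the miRNA.

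The miRNA is shown because its seed, bases 2 to 8, decides which letters count as a match in the members. The mature mouse sequence from RefSeq (GRCm38.p6, chr6:30165962-30165986, minus strand, 25 bases) is given with the seed in capitals.
miR-182-5p: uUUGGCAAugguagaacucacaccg
Its 7-base match is TTGCCAA, searched on the mRNA strand of GENCODE M21 transcripts (GRCm38). None of the 10 members held this match in the longest annotated 3′-UTR, against 1737 of 12504 tested genes with a 3′-UTR (13.9%). The 8-base match TTGCCAAA contains the 7-base match, so it was absent from the same 3′-UTRs by construction (5.71% of all tested genes hold it). Searched in any annotated transcript, the 7-base match was also in the 3′-UTR of no member, beside 15.7% of all tested genes. A search of shorter matches, of the coding sequence and of the 5′-UTR was added after these results were seen. The 6-base match TGCCAA stood in the 3′-UTR of 5 of 10 members (Notch1, Notch2, Notch4, Dll4 and Hes1), beside 37.8% of all tested genes, and TGCCAAA, the match to positions 2 to 7 followed by an A, stood in 2 of 10 (Notch1 and Hes1), beside 15.6%. In coding sequence TTGCCAA was found in 3 of 10 members (Notch1, Notch2 and Jag1), beside 14.3%. In the 5′-UTR it was found in 0 of 10, beside only 0.816% of all tested genes. A match is a description of letters and not a site of action.

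The windows below hold the matches of Notch1, Hes1 and Jag1 and the Notch2 match whose window is most like that of Notch1, with the matching letters in capitals. They are 25-base stretches of GRCm38, each read on the strand of its gene. The Notch1 3′-UTR window is at chr2:26458616-26458640 (minus strand, exon 34 of 34), the Hes1 3′-UTR window at chr16:30067698-30067722 (plus strand, exon 4 of 4), the Notch1 coding window at chr2:26460894-26460918 (minus strand, exon 34), the Notch2 coding window at chr3:98146111-98146135 (plus strand, exon 34 of 34) and the Jag1 coding window at chr2:137083160-137083184 (minus strand, exon 26 of 26).
Notch1 3′-UTR: ctaacacctgacTGCCAAAgggctc
Hes1 3′-UTR: ttttttatgtgaTGCCAAAgatgtt
Notch1 coding: tgctggaccactTTGCCAAccggga
Notch2 coding: tgttagaccattTTGCCAAccggga
Jag1 coding: agaaagtccgctTTGCCAAacagcc
The Notch1 and Notch2 coding windows shared 22 of 25 bases. Notch2 held 5 coding matches in all, a number reached by 3 of 12504 tested genes (0.0240%), in a coding sequence of 7422 bases against a median of 1176 over these genes. Notch2, with the 5 coding matches, rose, and Notch1 and Jag1, with 1 coding match each, fell. With 0 coding matches, Notch3 and Hey1 fell too, and Notch4 and Hes1 did not pass the test. A relation of coding matches to the change in reads was not tested.

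Of the 10 members, 7 passed the filter on low counts and were tested. Among these 7, Notch2 rose, Notch1, Notch3, Jag1 and Hey1 fell, and Notch4 and Hes1 did not pass the test, which is 5 of 7 past the adjusted p beside 46.7% of all tested genes. By direction this is 1 of 7 higher beside 23.2% of all tested genes and 4 of 7 lower beside 23.5%. Hey1 alone was called, 1 of 7 beside 7.45% (5.48% for genes called lower), and no member was called higher, beside 1.97%. The median log2 fold change of the 7 was -0.29, beside -0.0043 over all tested genes. The 2 groups did not overlap for the 5 members past the test, and 54.8% of all tested genes likewise showed no overlap. In bulk samples, fewer cells of a type that expresses a gene and less RNA of that gene per cell cannot be told apart.

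**Figure D1:**
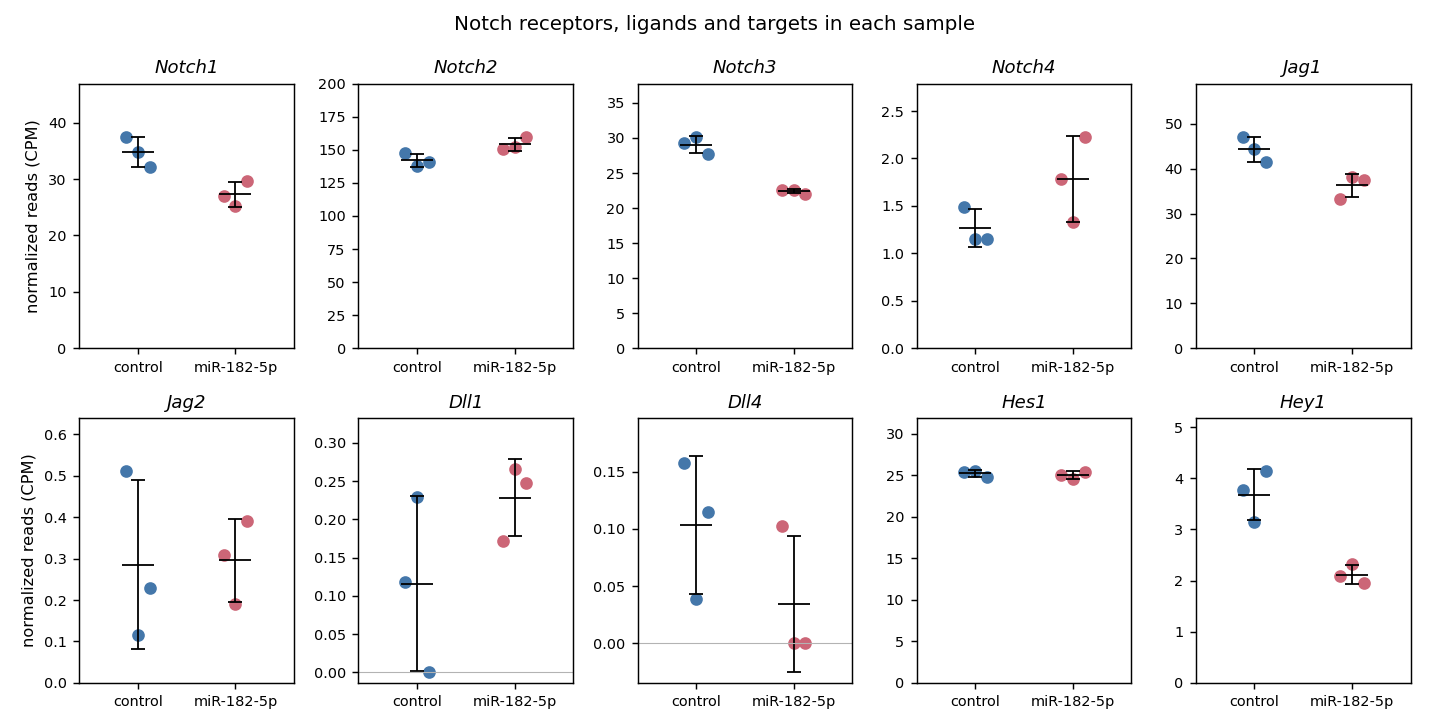
Normalized reads in CPM of each of the 10 members in 3 control and 3 miR-182-5p samples. Points are samples in replicate order, the long bar is the mean and the whiskers are the SD. Notch1, Notch3, Jag1 and Hey1 are lower and Notch2 is higher in every miR-182-5p sample than in any control sample, while Hes1 lies between 24.5 and 25.5 CPM in all 6. The Dll1 and Dll4 panels rest on 0 to 7 reads a sample.

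Among the receptors, Notch1, the prototype of the family, gave 37.6, 34.8 and 32.2 CPM in the controls and 27.0, 25.2 and 29.6 CPM with miR-182-5p. Every miR-182-5p sample lay below the lowest control. Notch1 fell by 21.6% (log2 fold change -0.35, SE 0.068, adjusted p = 0.000730 in edgeR's quasi-likelihood test, n = 3 per group).

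Notch3, known for its role in vascular smooth muscle and pericytes, had 29.3, 30.2 and 27.7 CPM in the controls and 22.6, 22.5 and 22.1 CPM with miR-182-5p. The miR-182-5p samples stood close together, with a coefficient of variation of 1.27%, below all controls. Notch3 fell by 22.9% (log2 fold change -0.38, SE 0.053, adjusted p = 4.9e-05 in edgeR's quasi-likelihood test). Of the 7 members tested it had the smallest p.

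Notch2 was the receptor with the highest level, at 147.5, 137.5 and 141.2 CPM in the controls and 150.9, 151.9 and 160.1 CPM with miR-182-5p. The gap between the highest control and the lowest miR-182-5p sample was narrow. Notch2 rose by 8.62% (log2 fold change 0.12, SE 0.034, adjusted p = 0.0106 in edgeR's quasi-likelihood test), and without control replicate 2 the rise no longer passed (log2 fold change 0.10, adjusted p = 0.0562).

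Notch4, a receptor best known from endothelium, was near the lower limit of what could be tested, with 38, 30 and 30 reads in the controls and 52, 35 and 63 reads with miR-182-5p. As CPM these were 1.49, 1.15 and 1.15 CPM against 1.78, 1.33 and 2.23 CPM, and the groups overlapped. Its log2 fold change of 0.50 (SE 0.22, 95% confidence interval -0.11 to 1.11) did not pass the test in edgeR (adjusted p = 0.0757). Leaving out miR-182-5p replicate 2 alone gave 0.67 with an adjusted p of 0.0241, past both limits of a call.

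The balance among receptors differed between the groups more than their sum. Per kilobase of mRNA, the 4 receptors together came to 21.0 ± 0.760 CPM per kb in the controls and 20.6 ± 0.726 with miR-182-5p (SD, n = 3 each). Within that sum, Notch2 held 64.2%, 63.2% and 65.7% in the 3 controls and 70.7%, 71.8% and 71.0% in the 3 miR-182-5p samples. The shares of Notch1 and Notch3 were both smaller with miR-182-5p, at 13.9% ± 0.688 against 17.4% ± 0.786 for Notch1 and 13.5% ± 0.634 against 17.3% ± 0.825 for Notch3. Notch4 held 0.939% ± 0.112 in the controls and 1.35% ± 0.299 with miR-182-5p. The sum and the shares depend on the length taken for each gene. With all exon bases of a gene in place of 1 mRNA, the control means were 13.2 for Notch2, 3.59 for Notch3 and 2.45 for Notch1.

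Ratios within a sample do not depend on the scaling of the libraries. The log2 ratio of Notch2 to Notch1 was 2.03 ± 0.0890 in the controls and 2.50 ± 0.0810 with miR-182-5p (SD, n = 3), a difference of 0.47. The log2 ratio of Notch3 to Notch2 was -2.29 ± 0.0896 and -2.78 ± 0.0653, a difference of -0.49. For each, no sample of one group overlapped the other. Notch2 was higher in every miR-182-5p sample than in any control, and Notch1 and Notch3 were lower. The lack of overlap in the ratios follows from this and is not separate evidence. The two-sided exact permutation p was 0.1, which is the smallest that 3 samples against 3 allow. Over the 4 ratios computed, the adjusted p was 0.1 for each.

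**Figure D2:**
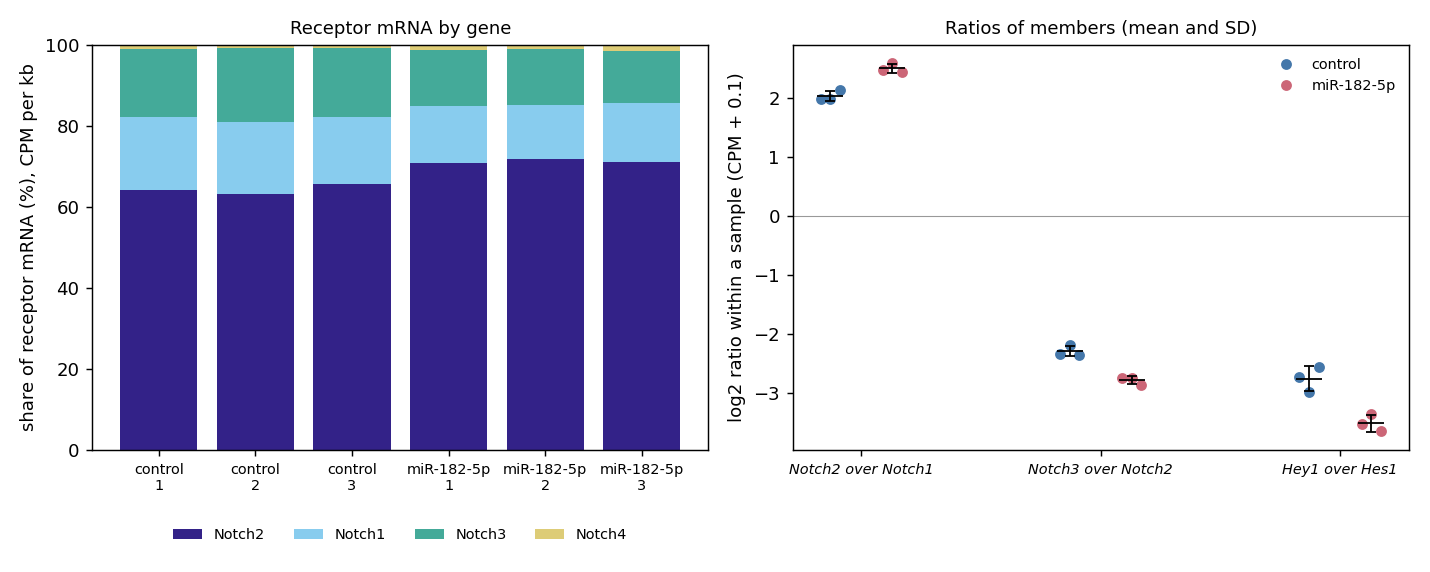
Left, the share in percent of each Notch receptor in the summed receptor mRNA (CPM per kb) of every sample. Notch2 takes 63.2% to 65.7% in the controls and 70.7% to 71.8% with miR-182-5p. Right, log2 ratios of 2 members within a sample, computed on CPM + 0.1, with the mean and SD of 3 samples, and in each of the 3 ratios drawn the groups do not overlap.

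Jag1, the Jagged ligand that carried nearly all ligand reads here, had 47.2, 44.3 and 41.5 CPM in the controls and 33.2, 38.1 and 37.5 CPM with miR-182-5p. All miR-182-5p samples lay below all controls. Jag1 fell by 18.2% (log2 fold change -0.29, SE 0.061, adjusted p = 0.00132 in edgeR's quasi-likelihood test).

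The other 3 ligands were at a few reads per library, did not pass the filter and were not tested. Jag2, the second Jagged ligand, had 13, 3 and 6 reads in the controls and 9, 5 and 11 with miR-182-5p. Dll1, a Delta-like ligand of many tissues, had 3, 6 and 0 reads and then 5, 7 and 7. Dll4, the Delta-like ligand of sprouting endothelium, had 4, 1 and 3 reads and then 3, 0 and 0. The groups overlapped for Jag2, Dll1 and Dll4, and a count of 0 in these libraries allows up to 3 reads, or 0.106 to 0.115 CPM in the samples where it occurred. Pooled over the 3 samples of a group, Dll1 came to 0.116 CPM (exact 95% Poisson interval 0.0530 to 0.220) in the controls and 0.227 CPM (0.137 to 0.354) with miR-182-5p, and Dll4 to 0.103 CPM (0.0445 to 0.203) and 0.0358 CPM (0.00739 to 0.105). These intervals cover counting error only and overlapped for both genes. Overlap of intervals is not a test, and a difference in the pooled reads was not tested. The log2 ratio of Dll1 to Jag1 was 1.04 higher with miR-182-5p (exact permutation p = 0.1), but it rests on at most 7 Dll1 reads a sample and went to 0.43 with a pseudocount of 1 CPM and to 0.62 without control replicate 3.

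Of the targets, Hes1 and Hey1 both encode helix-loop-helix repressors, and they parted. Hes1 had 25.5, 25.5 and 24.8 CPM in the controls and 25.1, 24.5 and 25.4 CPM with miR-182-5p. The groups overlapped and both had a coefficient of variation under 2%, with 1.58% in the controls and 1.85% with miR-182-5p. The log2 fold change was -0.01 (SE 0.050, edgeR adjusted p = 0.855) with a 95% confidence interval of -0.15 to 0.13, and without miR-182-5p replicate 2 its sign turned (0.0056).

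Hey1 had 96, 82 and 108 reads in the controls and 61, 61 and 55 with miR-182-5p, or 3.77, 3.14 and 4.14 CPM against 2.09, 2.31 and 1.95 CPM. The lowest control stood clear of the highest miR-182-5p sample. Hey1 fell by 42.5% (log2 fold change -0.80, SE 0.15, 95% confidence interval -1.21 to -0.38, adjusted p = 0.000544 in edgeR's quasi-likelihood test). With any 1 of the 6 samples left out it was still called, at log2 fold changes of -0.90 to -0.71. The log2 ratio of Hey1 to Hes1 was -2.75 ± 0.216 in the controls and -3.50 ± 0.146 with miR-182-5p, a difference of -0.75 with no overlap and the smallest possible exact permutation p of 0.1.

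Levels can be set side by side between genes only per length. Per kilobase of the mRNA with the longest 3′-UTR, the order of the control means was Hes1 (17.2 ± 0.272 CPM per kb), Notch2 (13.5 ± 0.481), Jag1 (7.90 ± 0.507), Notch1 (3.67 ± 0.283), Notch3 (3.63 ± 0.158), Hey1 (1.52 ± 0.208), Notch4 (0.198 ± 0.0311), Jag2 (0.0558 ± 0.0399), Dll1 (0.0324 ± 0.0321) and Dll4 (0.0276 ± 0.0161), with SD over 3 samples. Notch1 and Notch3 overlapped, as did Jag2, Dll1 and Dll4, and the other neighbors in this order did not overlap. With miR-182-5p the first 7 places were the same, from Hes1 at 17.04 ± 0.315 to Notch4 at 0.279 ± 0.0708 CPM per kb. The order depends on the length used. With all exon bases of a gene in place of 1 mRNA, the control mean of Notch2 (13.2) stood above that of Hes1 (12.4) and the mean of Notch3 (3.59) above that of Notch1 (2.45).

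**Figure D3:**
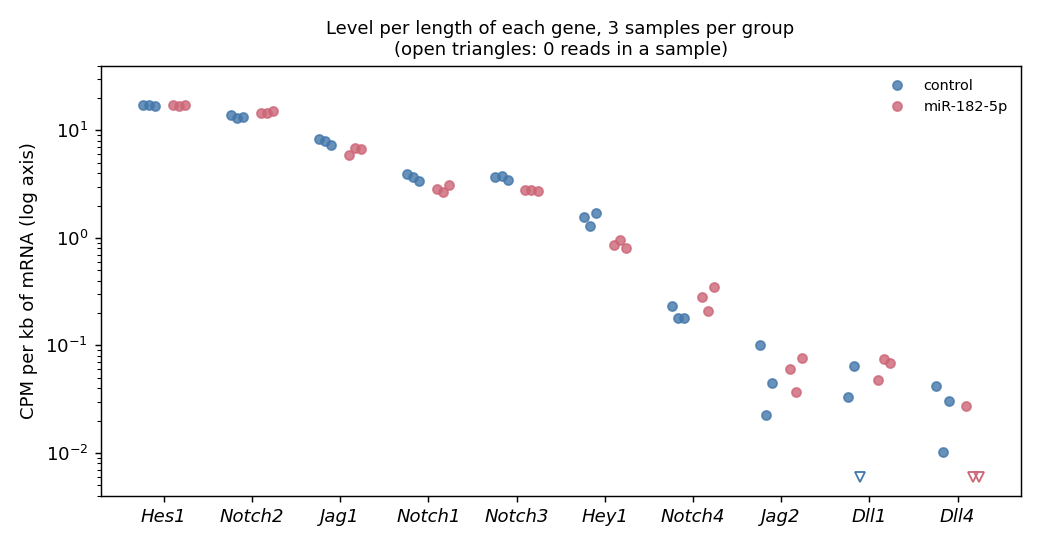
Level of each member per kilobase of mRNA (CPM per kb, log axis) in 3 control and 3 miR-182-5p samples, ordered by the control mean. Points are samples and open triangles at the bottom mark samples with 0 reads. Hes1, Notch2 and Jag1 lead in both groups, and Jag2, Dll1 and Dll4 lie below every Notch4 value in all 6 samples.

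In the annotation used here, exons of some members overlap those of other genes. In GENCODE M21 the exons of Notch1 (chromosome 2) share 1389 of 14232 bases with RNA genes of the opposite strand, those of Notch3 (chromosome 17) share 488 of 8089 with an antisense RNA gene and those of Notch2 (chromosome 3) share 541 of 10782 with a gene model of the same strand. The exons of Dll1 (chromosome 17) share 867 of 4219 bases and those of Dll4 (chromosome 2) 214 of 3852 with RNA genes of the opposite strand. Hes1, Hey1, Jag1, Jag2 and Notch4 share none. The libraries mark the strand, but neither the strand setting nor the annotation of the counting is given in the sources used here. Whether these overlaps touched the counts is therefore not known.

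The genes around the members came from a list of 62 pathway genes, of which 53 were tested. In this list 17 rose and 9 fell, which is 26 of 53 (49.1%) beside 46.7% of all tested genes, and 4 were called (7.55%) beside 7.45%. By direction, 17 of 53 were higher beside 23.2% of all tested genes, and 9 of 53 were lower beside 23.5%. The median log2 fold change of the list was 0.02, beside -0.0043 over all tested genes. Without regard to direction, the counts past the adjusted p and called stood near the background.

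**Figure D4:**
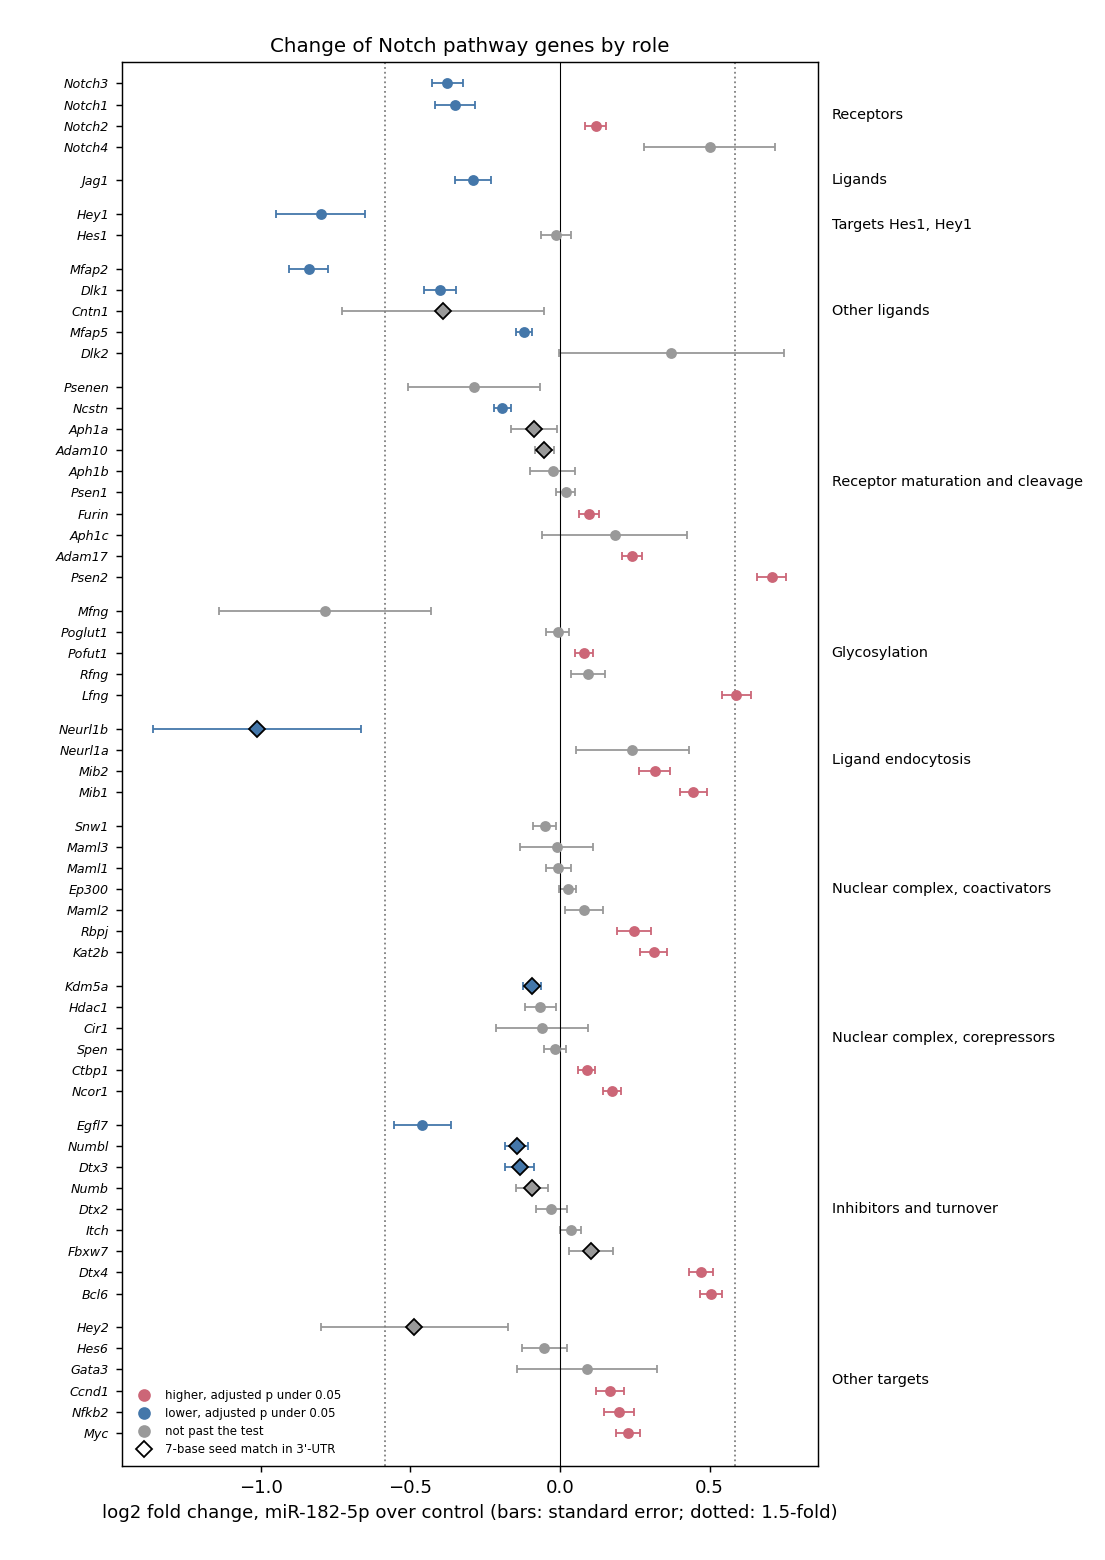
Log2 fold change (miR-182-5p over control) with its standard error for the 7 tested members and the tested pathway genes reported here, grouped by role. Red points rose and blue points fell at an adjusted p under 0.05, gray points did not pass, diamonds mark genes with a 7-base seed match in the 3′-UTR, and dotted lines mark 1.5-fold. Psen2 and Lfng lie past the upper line, and Mfap2, Neurl1b and Hey1 past the lower line among genes that passed the test.

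Among the other proteins that bind Notch receptors, 3 of 5 tested fell and none rose. Mfap2, a microfibril protein that binds Jagged ligands and Notch1, had 31.1, 32.2 and 29.8 CPM in the controls and 15.8, 17.7 and 18.5 CPM with miR-182-5p. The groups stood far apart, and Mfap2 was called (log2 fold change -0.84, SE 0.064, adjusted p = 1.27e-07 in edgeR's quasi-likelihood test). Dlk1, a Delta-like protein of preadipocytes, fell by 0.40 on the log2 scale (SE 0.053), and Mfap5, the relative of Mfap2, fell by 0.12 (SE 0.027).

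Receptor maturation and cleavage had 3 of 10 genes that rose and 1 that fell. Psen2, which encodes one of the alternative catalytic subunits of gamma-secretase, had 26.1, 26.9 and 25.9 CPM in the controls and 42.5, 44.5 and 41.8 CPM with miR-182-5p. The samples of each group stood close together and far from the other group, and Psen2 was called (log2 fold change 0.71, SE 0.048, adjusted p = 3.73e-08 in edgeR's quasi-likelihood test). Adam17, a sheddase, rose by 0.24 on the log2 scale (SE 0.032) and Ncstn, the gamma-secretase subunit nicastrin, fell by 0.19 (SE 0.028). Furin, the convertase that trims the receptors, rose by 0.10 (adjusted p = 0.0318 in edgeR), which did not pass with upper-quartile scaling (adjusted p = 0.0540) or in 4 of the 6 fits that leave out 1 sample.

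Of the 5 enzymes that place sugars on Notch, 2 rose. Lfng, a Fringe glycosyltransferase that tunes the answer of a receptor to Delta-like and Jagged ligands, had 33.5, 32.8 and 30.0 CPM in the controls and 48.0, 47.9 and 49.1 CPM with miR-182-5p. The groups were well apart. Lfng was called at the border of 1.5-fold (log2 fold change 0.59, SE 0.050, adjusted p = 3.51e-07 in edgeR's quasi-likelihood test), which held for 4 of the 6 fits with 1 sample left out and not under upper-quartile scaling. Pofut1, which adds O-fucose, rose by 0.08 (adjusted p = 0.0368 in edgeR), and its rise did not pass in 4 of 7 other processing settings (adjusted p up to 0.0898 in these) or in 5 of the 6 fits with 1 sample left out. Of the other Fringe genes, Rfng had a log2 fold change of 0.09 (edgeR adjusted p = 0.197) and Mfng one of -0.79 (edgeR adjusted p = 0.0836) at under 1 CPM.

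The ubiquitin ligases that drive ligand endocytosis, the pull that opens the receptor, split. Mib1 rose by 0.45 on the log2 scale (SE 0.045) and Mib2 by 0.32 (SE 0.051), and Neurl1a had a log2 fold change of 0.24 (edgeR adjusted p = 0.340). Neurl1b had 14, 18 and 17 reads in the controls and 5, 9 and 12 with miR-182-5p. Its groups did not overlap but the reads are few, and its log2 fold change of -1.01 (SE 0.35, adjusted p = 0.0277 in edgeR's quasi-likelihood test) was called, though not in DESeq2 (adjusted p = 0.103) nor in 4 of the 6 fits that leave out 1 sample.

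In the nuclear complex, Rbpj, the DNA-binding partner of every Notch receptor, rose by 0.25 (SE 0.056) and the acetyltransferase gene Kat2b by 0.31 (SE 0.044), 2 of 7 coactivator genes, and Snw1 had a log2 fold change of -0.05 (edgeR adjusted p = 0.293). Among the corepressor genes, Ncor1 rose by 0.17 (SE 0.030) and Ctbp1 by 0.09 (SE 0.028), while Kdm5a fell. The rise of Ctbp1 did not pass without control replicate 3 or without miR-182-5p replicate 2 (edgeR adjusted p = 0.0704 and 0.0616), and no gene of the complex was called.

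Among inhibitors and turnover genes, 2 of 9 rose and 3 fell. Bcl6, a repressor that can displace Notch coactivators, rose by 0.50 (SE 0.037) and Dtx4, a Deltex ubiquitin ligase, by 0.47 (SE 0.039). Egfl7, a secreted antagonist best known from endothelium, fell by 0.46 (SE 0.096), with 6.74 ± 0.362 CPM in the controls and 4.90 ± 0.151 with miR-182-5p (SD, n = 3).

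Among the other targets, Myc rose by 0.23 (SE 0.039), Nfkb2 by 0.20 (SE 0.050) and Ccnd1 by 0.17 (SE 0.047), 3 of 6 tested, and these genes answer to many pathways besides Notch. Hes2, Hes3, Hes5, Hes7, Heyl and Nrarp, 6 of the 12 listed, had at most 10 reads in any sample and were not tested.

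The 7-base seed match lay in the 3′-UTR of 10 of the 53 tested pathway genes (18.9%, beside 13.9% of all tested genes). Of these 10, Neurl1b, Kdm5a, Numbl and Dtx3 fell and none rose, with a median log2 fold change of -0.11. That is 4 of 10 lower beside 622 of 1737 (35.8%) of all tested genes with the match, and 0 of 10 higher beside 324 of 1737 (18.7%), so the count of lower genes stood near that of all genes with the match. The other 6, Adam10, Aph1a, Cntn1, Fbxw7, Hey2 and Numb, did not pass the test, with log2 fold changes from -0.49 (Hey2) to 0.10 (Fbxw7). Of the 43 without a match, 17 rose (39.5%, beside 24.7% of all tested genes without a match) and 5 fell (11.6%, beside 22.1%). The median of these 43 was 0.08. Over all tested genes the medians were -0.06 with a match and 0.0074 without. The matches of the 4 genes that fell are shown in capitals on GRCm38, each on the strand of its gene: Neurl1b at chr17:26445595-26445618 (plus), Kdm5a at chr6:120441343-120441366 and chr6:120443063-120443086 (plus), Numbl at chr7:27281570-27281593 (plus) and Dtx3 at chr10:127190943-127190963 (minus).
Neurl1b 3′-UTR: atggtgagtgagcccTTGCCAAac
Kdm5a 3′-UTR, first: tcacacattttcattTTGCCAAac
Kdm5a 3′-UTR, last: aataaagcctgccttTTGCCAAgc
Numbl 3′-UTR: tgtgatgcctaggttTTGCCAAga
Dtx3 3′-UTR: gggacagctcctTTGCCAAgg
The Neurl1b match and the first Kdm5a match are followed by an A. Numbl and Dtx3 lie among the inhibitors and Kdm5a among the corepressors, and their log2 fold changes were between -0.14 and -0.09.

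RBPJ binds the letters GTGGGAA, searched on both strands, and the reverse complement reads TTCCCAC. RefSeq promoter windows (GRCm38.p6, 250 bases before to 50 after the gene start) were given for 8 of the 10 members, all but Hes1 and Hey1, and none of these 8 held the motif, beside 2097 of 32851 promoters (6.38%). Among promoters of tested genes the share was 6.22%, counted over promoters, of which a gene can have several. Of the pathway list, 46 genes had a promoter window and 7 of them held the motif. Of these 7, Psen2 and Lfng rose, Aph1a, Spen and Hey2 did not pass the test (log2 fold changes -0.09, -0.02 and -0.49), and Hes5 and Hes7 were not tested. The windows of the genes that were called are given with the motif in capitals, Psen2 at chr1:180246022-180246050 (minus strand) and Lfng at chr5:140607221-140607249 (plus strand).
Psen2 promoter: gcacaggagacTTCCCACagatgtttatc
Lfng promoter: ccgtatcccacGTGGGAAggagagatctc
These are matches of letters only, and binding was not measured.

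Markers of the cell types in the culture moved with the groups, and their part in the changes of the members was not tested. Of all tested genes, 23.5% were lower and 23.2% higher. The 9 adipocyte markers summed to 6548 to 6878 CPM in the controls and 4482 to 5083 with miR-182-5p, with 6 lower and 1 higher (Lep) of 9 tested. Fabp4 held the largest part of this sum, with means of 3316 CPM in the controls and 2067 CPM with miR-182-5p. Plin1 and Lipe did not pass the test (log2 fold changes -0.06 and -0.09). The 7 adipocyte progenitor markers summed to 1529 to 1581 CPM and 1028 to 1150 CPM, with 5 lower of 6 tested. The 9 mural and smooth muscle markers, of interest for Notch3, summed to 3118 to 3280 CPM and 3711 to 3935 CPM. Of 8 tested, 3 were higher (Acta2, Cspg4 and Cnn1) and 2 lower (Abcc9 and Kcnj8). Most of this sum was Acta2, with 2285 to 2409 CPM in the controls and 2817 to 3031 CPM with miR-182-5p. Pdgfrb held 690 to 715 CPM and 726 to 741 CPM and did not pass the test. Abcc9 fell by 0.92 on the log2 scale (SE 0.083). Kcnj8 had 5 to 16 reads a sample, and Rgs5, not tested, had 1 to 9.

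Endothelial markers bear on Hey1, Notch4, Dll4 and Egfl7. The 10 markers summed to 9.11 to 10.3 CPM in the controls and 5.66 to 6.52 CPM with miR-182-5p. Cldn5, which marks endothelium, had 0 reads in all samples, Pecam1 had 3 to 11 reads a sample, and Tek, 1 of 4 tested, fell by 1.31 on the log2 scale (SE 0.13). Tek alone held 5.59 to 6.74 CPM in the controls and 2.23 to 2.71 CPM with miR-182-5p. The other 9 markers summed to 3.30 to 3.75 CPM and 3.30 to 4.29 CPM, with overlapping groups. Kdr, among these, had a log2 fold change of 0.43 (SE 0.20, edgeR adjusted p = 0.0899). Macrophage markers summed to 15.01 to 16.05 CPM and 12.8 to 16.3 CPM, with 1 lower of 4 tested, and Schwann cell markers to 6.09 to 6.97 CPM and 4.45 to 5.31 CPM, with 1 lower (S100b) of 3 tested. No T and B cell marker passed the filter, and 3 of 6 had 0 reads in all samples.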

How the data were processed

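RNA of 6 samples was sequenced as stranded, poly(A)-selected libraries. For each sample, the authors deposited a list of unnormalized counts under gene symbols. The submitters' processing notes name bcl2fastq, TopHat2, HTSeq and the build mm9. The annotation and the strand setting are not given in the sources used here, so coordinates come from GENCODE M21 and RefSeq on GRCm38. The 5 tally lines (12.7% to 13.0% of reads outside genes, 0.652% to 0.667% ambiguous, and 19363264 to 21673840 alignments that were not unique) stayed out of library sizes.

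Counts were tested across all genes in R 4.3.3 with edgeR 4.0.16 (TMM scaling, filterByExpr with a minimum count of 10, quasi-likelihood test, two-sided, Benjamini-Hochberg adjustment over 13117 genes), on 2 groups with no block. Genes were called at an adjusted p under 0.05 and at least 1.5-fold. CPM used TMM-scaled library sizes. The 95% confidence intervals of log2 fold changes used a t distribution with 4 residual degrees of freedom. The edgeR test shares information on spread between genes, so these intervals are wider than that test implies. Exact permutation tests on log2(CPM + 0.1) served the 4 ratios. The replicate pairs differed by more than counting noise. Scripts were tested on simulated data. There 198 genes had an adjusted p under 0.05, and 23 of these had been given no difference. Of 99 genes given a log2 difference of 1, 95 were recovered. Of 99 genes given a log2 difference of 0.5, 80 were recovered. The members, the pathway list and the marker lists were chosen with earlier results of these data known. All members are named, and of the pathway list every called gene and up to 3 genes per role with the smallest p, with genes holding a seed or promoter match named in addition. A gene of the pathway list, counted in its totals, is not reported here by itself. Alternatives were DESeq2 1.42.0, limma-voom (limma 3.58.1), 2 other scalings, 2 other filters, the replicate number as a block, each sample left out, and other fold limits. Tables were made in Python 3.11.15 (pandas 2.3.3, numpy 2.4.6) and figures with matplotlib 3.10.9.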

Additional observations from a re-analysis of the deposited data

How the results depend on the processing

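With a 2-fold limit 280 genes were called, 0 of the members and 1 of the pathway list (Neurl1b), and with glmTreat against 1.5-fold 298, 0 and 1 (Mfap2), as both limits are stricter by construction. With each sample left out in turn, 902 to 1011 genes, 1 to 2 members and 3 to 4 pathway genes were called, and 4 to 6 members were past the adjusted p, where the second called member was Notch4 without miR-182-5p replicate 2. The log2 fold change of Hes1 ran from -0.026 to 0.0056 in these fits and turned sign without miR-182-5p replicate 2, and the cause was not tested. Counts of members called or past the adjusted p stayed at 1 and 5 in DESeq2, limma-voom, both other scalings and both other filters. The seed match count of 0 became 5 with the 6-base match, 2 with positions 2 to 7 followed by an A and 3 in coding sequence, searches chosen after seeing the data that admit other letters or other sequence. The replicate numbers did not pair the samples (correlation of same-numbered deviations -0.185 to -0.0436). With the number as a block 925 genes, 1 member and 4 pathway genes were called, and 5716 genes, 5 members and 23 pathway genes were past the adjusted p, with Furin and Pofut1 among those lost (adjusted p = 0.0507 and 0.0544). Without the filter, Jag2, Dll1 and Dll4 had edgeR adjusted p of 0.945, 0.336 and 0.354. Differences in genes with under 20 reads a sample are limited by depth.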
